A study of Mus musculus with 29 samples.

Results

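The 9 mouse genes described here carry iron into, through and out of the cells of the gut wall, or hold and recycle it inside them. They were taken by gene symbol: Slc40a1, Cybrd1, Slc11a2, Heph, Tfrc, Fth1, Ftl1, Hmox1 and Flvcr1. All 9 were found, among 47729 gene identifiers in the crypt files, 49585 in the tissue files and 52550 in the organoid files. They were followed by poly(A)-selected, strand-specific RNA sequencing through 29 libraries of C57BL/6 material in 8 groups. Isolated epithelial crypts came from 4 H2BdIEC mice and 4 H2B flox/flox controls, all aged 52 weeks, and these libraries are named by the ending of their titles (Crypt_975). Tumors and the normal tissue beside them came from the same 4 H2B/p53dIEC mice, and 4 tissue controls came from H2B/p53flox/flox mice. Organoids, cultured epithelium with no other tissue, came as 3 H2B/p53dIEC libraries (H2Bp53dIEC below), 3 H2BdIEC libraries and 3 controls titled as wild type with the genotype H2B/p53flox/flox. H2B stands for Rnaseh2b, a subunit of the ribonuclease that starts the removal of ribonucleotides from DNA. The suffix dIEC is the labels' genotype name, and the Cre driver, the segment of intestine, the ages behind the tissue and organoids and the number of mice behind the organoids are not given in the sources used here. The organoid replicates may therefore be technical, and their p-values measure only the spread between these libraries.

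Library totals ran from 13219451 to 41504298 counts, except for organoid H2BdIEC A with 5774771 and tissue control 1320 with 401365. The Rnaseh2b level was below every control library in all H2BdIEC and H2B/p53dIEC libraries of the same material. It was 2.13 to 2.71 CPM in H2BdIEC crypts against 6.87 to 14.4 CPM in control crypts, where CPM is the read count scaled to library size with a normalization factor. Trp53 was 9.96 to 11.8 CPM in H2Bp53dIEC organoids, against 78.3 to 110.2 CPM in H2BdIEC organoids and 98.3 to 115.3 CPM in control organoids. In tissue it was 12.6 to 29.9 CPM in tumors and 13.7 to 27.8 CPM in adjacent tissue, against 39.1 to 49.6 CPM in controls. Adjacent tissue of mouse 1323 stood apart from the other 3 adjacent libraries in its markers of gut region. Its 6 ileum markers summed to 614.5 CPM, against 10660 to 13670 CPM in the other adjacent libraries, and its 8 markers of the proximal gut summed to 4532 CPM against 938.8 to 1064 CPM.

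Dietary iron is reduced at the brush border by Cybrd1, a cytochrome b reductase, and enters the enterocyte through Slc11a2, the divalent metal transporter DMT1. Iron not needed is locked into ferritin, a cage of heavy (Fth1) and light (Ftl1) chains, or leaves at the basal side through Slc40a1, ferroportin, the known exporter of iron from animal cells, with the ferroxidase Heph (hephaestin) oxidizing it for transferrin. Tfrc, the transferrin receptor, brings iron from blood into dividing cells, Hmox1 (haem oxygenase 1) frees iron from haem, and Flvcr1 is a haem exporter that also carries choline. Iron regulatory proteins read the cell's iron by binding hairpins called iron-responsive elements in some of these mRNAs. In iron-poor cells that binding blocks translation from the 5′ end of the mRNA and slows decay of the Tfrc mRNA from its 3′ end.

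The hairpins are shown because they sort the genes that hold them into those with a match at the 5′ end of an mRNA and those with a match at the 3′ end. Of the 9 genes, 5 held at least 1 match in the mouse annotation (GENCODE M21, build GRCm38). The pattern searched was a C, 5 bases, CAGTGN and 5 bases that pair with the first 5, with 1 mismatch allowed. Capitals mark the CAGTGN loop, and each line runs 5′ to 3′ on the mRNA strand with T for U.
Fth1, 5′ UTR, chr19:9982732-9982760, plus strand: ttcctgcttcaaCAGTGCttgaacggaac
Ftl1, 5′ UTR, chr7:45459779-45459807, minus strand: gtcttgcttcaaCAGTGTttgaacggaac
Slc40a1, 5′ UTR, chr1:45925465-45925493, minus strand: caacttcagctaCAGTGTtagctaagttt
Slc11a2, 3′ UTR, chr15:100395153-100395181, minus strand, 1 mismatch: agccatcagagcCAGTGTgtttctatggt
Tfrc, 3′ UTR, chr16:32631219-32631247, plus strand: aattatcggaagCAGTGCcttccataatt
Tfrc, 3′ UTR, chr16:32631598-32631626, plus strand: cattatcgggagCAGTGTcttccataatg
Tfrc, 3′ UTR, chr16:32631663-32631691, plus strand: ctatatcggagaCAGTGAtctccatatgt
Tfrc, 3′ UTR, chr16:32631710-32631738, plus strand: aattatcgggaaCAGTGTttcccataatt
Among 21901 protein-coding genes searched the same way, 0.94% held a match in a 5′ UTR and 3.98% in a 3′ UTR. Each match lay in 1 annotated protein-coding transcript of its gene, except that of Fth1, which lay in 4. Gene counts do not part transcripts with a match from those without. A match is a likeness of letters. The counts below are of mRNA and hold no measure of translation.

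The genes lie on 8 chromosomes of GRCm38. Slc40a1 spans chr1:45908068-45926523 and Flvcr1 chr1:191005847-191026158, both on the minus strand, and Cybrd1 spans chr2:71117923-71142926. Slc11a2 lies at chr15:100387898-100425072, Heph at chrX:96455359-96574485 and Tfrc at chr16:32608920-32632794. Fth1 lies at chr19:9980598-9985098, Ftl1 at chr7:45457944-45459884 and Hmox1 at chr8:75093621-75100589. On the other strand, exons of Slc11a2 overlap Gm5475, those of Flvcr1 overlap A230020J21Rik and those of Heph overlap Hsf3 over 29 bases. Exons of Ftl1 overlap Gm10252 on the other strand over 355 of their 1340 bases. They also overlap Gm22133 on their own strand over 109 bases. The library kit keeps strand, but the strand setting of the counting is not given, so reads of these pairs may be mixed. Ferritin also has processed copies in the genome, such as Fth-ps2 and Fth-ps3, with up to 284 and 649 counts in an organoid library against up to 35186 for Fth1. Ferritin levels are uncertain to the extent that reads were shared with such copies.

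To set genes and materials side by side, levels were expressed per exon length as TPM, a length-scaled share of all nuclear protein-coding transcripts. Ferritin heavy chain was the most abundant of the 9 in tissue and organoids. Its median was 1698 TPM in H2BdIEC crypts against 688.2 TPM in control crypts. It was 2982 TPM in tumors, 1211 TPM in adjacent tissue and 1058 TPM in control tissue. In organoids it was 2065 TPM in H2Bp53dIEC, 1837 TPM in H2BdIEC and 1810 TPM in controls. Ferritin light chain had medians of 1521 TPM in H2BdIEC crypts against 1030 TPM in control crypts. Its tissue medians were 1406 TPM in tumors, 743.2 TPM in adjacent tissue and 630.2 TPM in controls, and its organoid medians 530.7 TPM in H2Bp53dIEC, 649.3 TPM in H2BdIEC and 636.7 TPM in controls. The length used was the union of all annotated exons, 3469 bases for Fth1 and 1340 bases for Ftl1. Levels are understated where the transcripts present are shorter than that union. Rankings of different genes, and whether the ratio below exceeds 1, depend on these lengths. The order of groups in that ratio does not. Files of crypts, tissue and organoids list different numbers of gene identifiers. The part of counting in differences between these materials was not tested. The ratio of heavy to light chain mRNA, per length, differed between materials. It was 1.06 ± 0.23 in H2BdIEC crypts and 0.665 ± 0.020 in control crypts (SD, n = 4 each), with every H2BdIEC library above every control. It was 2.10 ± 0.26 in tumors, 1.70 ± 0.17 in adjacent tissue and 1.67 ± 0.06 in control tissue (SD, n = 4 each). In organoids it was 3.94 ± 0.20 in H2Bp53dIEC, 3.34 ± 1.06 in H2BdIEC and 2.73 ± 0.12 in controls (SD, n = 3 each).

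The genes of iron uptake were highest in organoids. Slc11a2 had medians of 349.5 TPM in H2Bp53dIEC, 539.9 TPM in H2BdIEC and 625.1 TPM in control organoids, while no crypt or tissue library passed 79.1 TPM. Its crypt medians were 51.2 TPM in H2BdIEC and 28.4 TPM in controls, and its tissue medians 39.3 TPM in tumors, 43.0 TPM in adjacent tissue and 33.3 TPM in controls. Cybrd1 was further apart: its medians were 308.0, 387.4 and 486.1 TPM in H2Bp53dIEC, H2BdIEC and control organoids, and 37.6 TPM in tumors. The other 4 groups had medians of 3.05 TPM in H2BdIEC crypts, 2.14 TPM in control crypts, 1.64 TPM in adjacent tissue and 1.40 TPM in control tissue. Tfrc had medians of 685.4 TPM in H2Bp53dIEC, 604.9 TPM in H2BdIEC and 629.8 TPM in controls, 3 groups whose ranges overlapped. Elsewhere it was 128.2 TPM in H2BdIEC crypts against 242.2 TPM in control crypts. In tissue it was 213.3 TPM in tumors, 189.5 TPM in adjacent tissue and 96.5 TPM in controls. Across the 8 group means of log2(TPM + 1), Cybrd1 and Slc11a2 had a Pearson r of 0.95 and Cybrd1 and Tfrc of 0.92. These correlations are over 8 points in 3 materials prepared as separate sets; the organoid groups were the highest for all 3 genes.

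The export side was ordered otherwise. Slc40a1 had medians of 60.2 TPM in H2BdIEC crypts and 3.39 TPM in control crypts, the lowest of the 8 groups and apart in range from the next. Its tissue medians were 13.7 TPM in tumors, 15.7 TPM in adjacent tissue and 31.6 TPM in controls, and its organoid medians 83.5 TPM in H2Bp53dIEC, 60.3 TPM in H2BdIEC and 49.6 TPM in controls. Ranges of all other neighbours in its order overlapped. Heph was highest in crypts, with medians of 253.8 TPM in H2BdIEC and 197.2 TPM in controls, and was 138.1 TPM in adjacent tissue and 167.9 TPM in control tissue. In organoids it was 51.6 TPM in H2Bp53dIEC, 56.4 TPM in H2BdIEC and 50.6 TPM in controls. Tumors, at 32.1 TPM, lay below all other groups. Flvcr1 had its highest medians in crypts too, 98.4 TPM in H2BdIEC and 57.3 TPM in controls, with separate ranges, and its lowest in tumors at 18.4 TPM. It was 36.5 TPM in adjacent tissue and 35.1 TPM in control tissue, and 44.6, 42.2 and 34.7 TPM in H2Bp53dIEC, H2BdIEC and control organoids. Hmox1 spread most between materials after Cybrd1: its medians were 113.5 TPM in tumors, 17.2 TPM in adjacent tissue and 3.90 TPM in control tissue. Organoid medians were 20.6 TPM in H2Bp53dIEC, 37.6 TPM in H2BdIEC and 50.3 TPM in controls, and crypt medians 1.05 TPM in H2BdIEC and 0.841 TPM in controls.

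**Figure D1:**
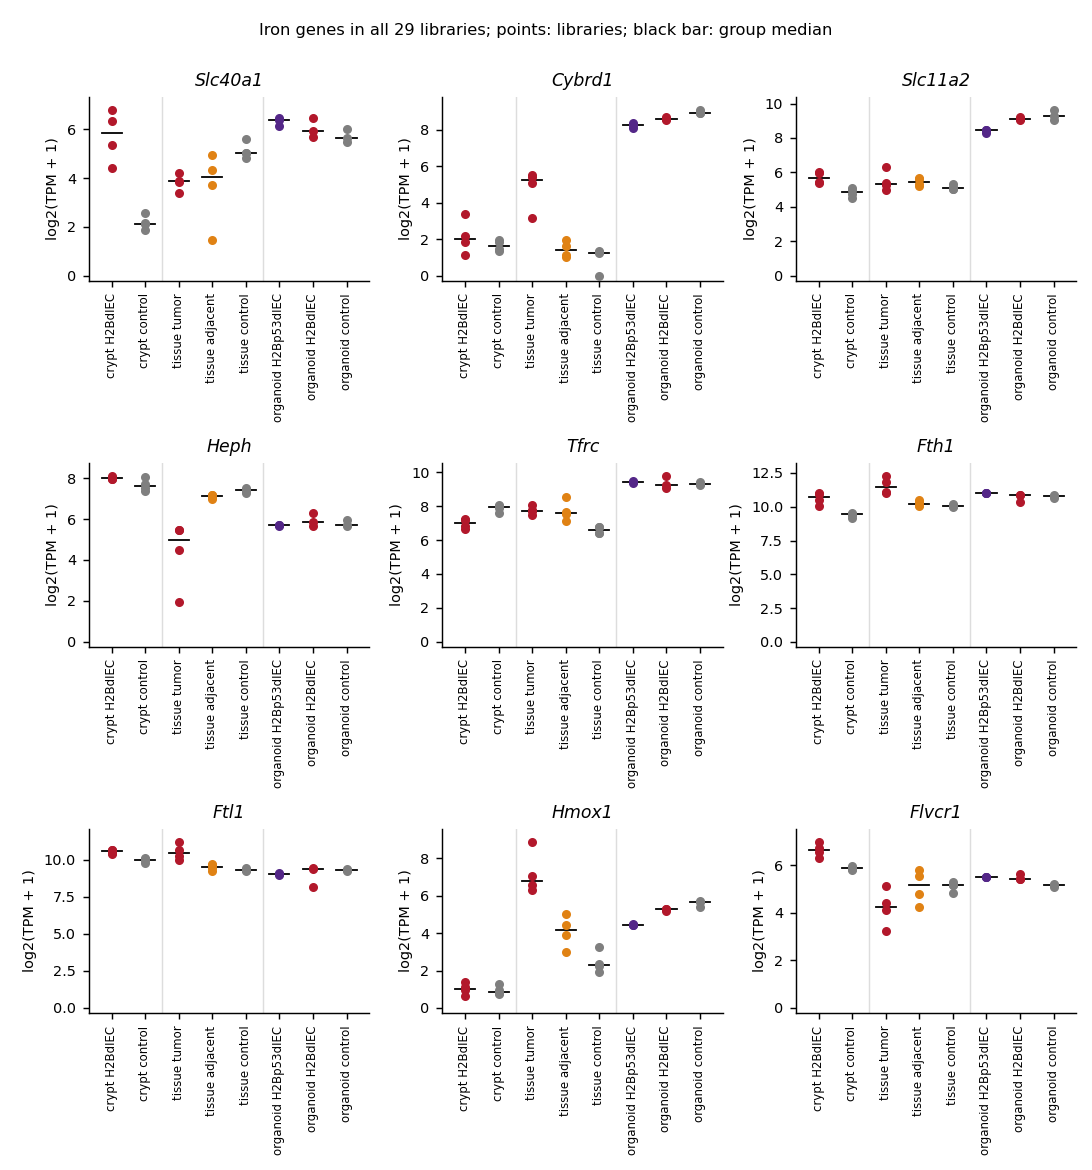
Level of each of the 9 iron genes as log2(TPM + 1) on the vertical axis, with 1 point per library and a bar at the group median; vertical lines part crypts, tissue and organoids. Cybrd1, Slc11a2 and Tfrc are highest in organoids, Hmox1 in tumors, and Slc40a1 lowest in control crypts (median 3.39 TPM).

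Genes with the most similar pattern over the 8 group means were looked up for 3 of the 9 genes. For Slc40a1 they were Mdp1, Acta1 and Nr0b2, with r of 0.93, 0.87 and 0.86 among 10966 genes. For Tfrc they were Zc3h6, Lpin1 and Sft2d3 with r of 0.99 each, and for Hmox1 they were Tnfsf9, Ccnd3 and Renbp with r of 0.99 each. With TPM taken over all genes, of the 3 names for each gene only Acta1, Lpin1 and Tnfsf9 came out again, so the other names depend on the scale.

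In crypts, the iron exporter had the largest fold change of the 9 genes between the genotypes. Ferroportin mRNA was 17.5-fold higher in H2BdIEC crypts, both ferritin chains, the importer Slc11a2 and the haem exporter Flvcr1 were also higher, and the transferrin receptor was lower. Slc40a1 had 225.0, 43.5, 100.4 and 188.6 CPM in H2BdIEC crypts Crypt_975, Crypt_976, Crypt_978 and Crypt_979, against 10.4, 7.20, 5.61 and 8.63 CPM in control crypts Crypt_970, Crypt_971, Crypt_972 and Crypt_981. The groups did not overlap, and the H2BdIEC libraries differed widely among themselves, with Crypt_976 the lowest. The log2 fold change was 4.13 ± 0.56 (SE), with an adjusted p of 0.0081 by edgeR's quasi-likelihood test with Benjamini-Hochberg adjustment, the test used for every adjusted p below. Of 14596 genes tested in crypts, 10.0% were called at an adjusted p under 0.05, and of the 9 iron genes 8 could be tested and 6 were called, 5 higher and 1 lower. The median log2 fold change of those 8 was 0.86, against -0.01 over all genes tested. The 9 genes were chosen with earlier results of these data known, so this count and median are descriptive only.

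The iron store genes were higher too. Fth1 had 1599, 849.4, 1383 and 1771 CPM in H2BdIEC crypts Crypt_975, Crypt_976, Crypt_978 and Crypt_979, against 456.3, 637.8, 553.8 and 666.2 CPM in control crypts Crypt_970, Crypt_971, Crypt_972 and Crypt_981, a log2 fold change of 1.28 ± 0.22 (adjusted p = 0.00822). Ftl1 averaged 504.9 ± 51.8 CPM in H2BdIEC crypts and 335.3 ± 47.8 CPM in control crypts (SD, n = 4 each), a log2 fold change of 0.59 ± 0.14 (adjusted p = 0.024). Both chains were higher in every H2BdIEC library than in any control. The light chain's call was the less stable one: its adjusted p reached 0.079 when H2BdIEC library Crypt_979 or control Crypt_970 or Crypt_972 was left out, and 0.137 in 1 fit over all 29 libraries.

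Of the uptake genes, 1 was called higher and 1 lower. Slc11a2, which takes up iron from the gut lumen and from endosomes, had 92.0, 62.3, 72.2 and 101.4 CPM in H2BdIEC crypts, against 45.0, 51.6, 39.3 and 38.7 CPM in control crypts, with libraries in the same order as above. The groups did not overlap, and the log2 fold change was 0.91 ± 0.16 (adjusted p = 0.00787). Tfrc, which takes up iron from blood, had 208.5, 146.8, 245.0 and 182.3 CPM in H2BdIEC crypts, against 386.2, 378.4, 275.2 and 394.7 CPM in control crypts. It fell in H2BdIEC crypts, by 0.87 on the log2 scale with an SE of 0.17 (adjusted p = 0.0133), and control Crypt_972 was the library nearest to the H2BdIEC values. Without H2BdIEC library Crypt_979 the adjusted p of Tfrc was 0.0536. Flvcr1 averaged 128.9 ± 27.2 CPM in H2BdIEC crypts and 73.7 ± 10.1 CPM in control crypts (SD, n = 4 each), a log2 fold change of 0.81 ± 0.15 (adjusted p = 0.0108). It was higher in every H2BdIEC library, and its adjusted p was 0.135 in 1 fit over all 29 libraries.

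The other 3 genes gave no call. Heph had 434.3 to 526.6 CPM in H2BdIEC crypts and 328.8 to 501.6 CPM in control crypts, ranges that overlapped through control Crypt_971. Its log2 fold change was 0.34 (adjusted p = 0.155), and 0.49 with an adjusted p of 0.0308 without control Crypt_971. Cybrd1 was low, with 1.5 to 11.2 CPM in H2BdIEC crypts and 1.98 to 3.61 CPM in control crypts. Its log2 fold change was 0.93 (adjusted p = 0.248), and 0.28 without H2BdIEC library Crypt_975. Hmox1 had 3 to 12 counts per library in H2BdIEC crypts and 8 to 16 counts in control crypts, under the minimum for a test.

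**Figure D2:**
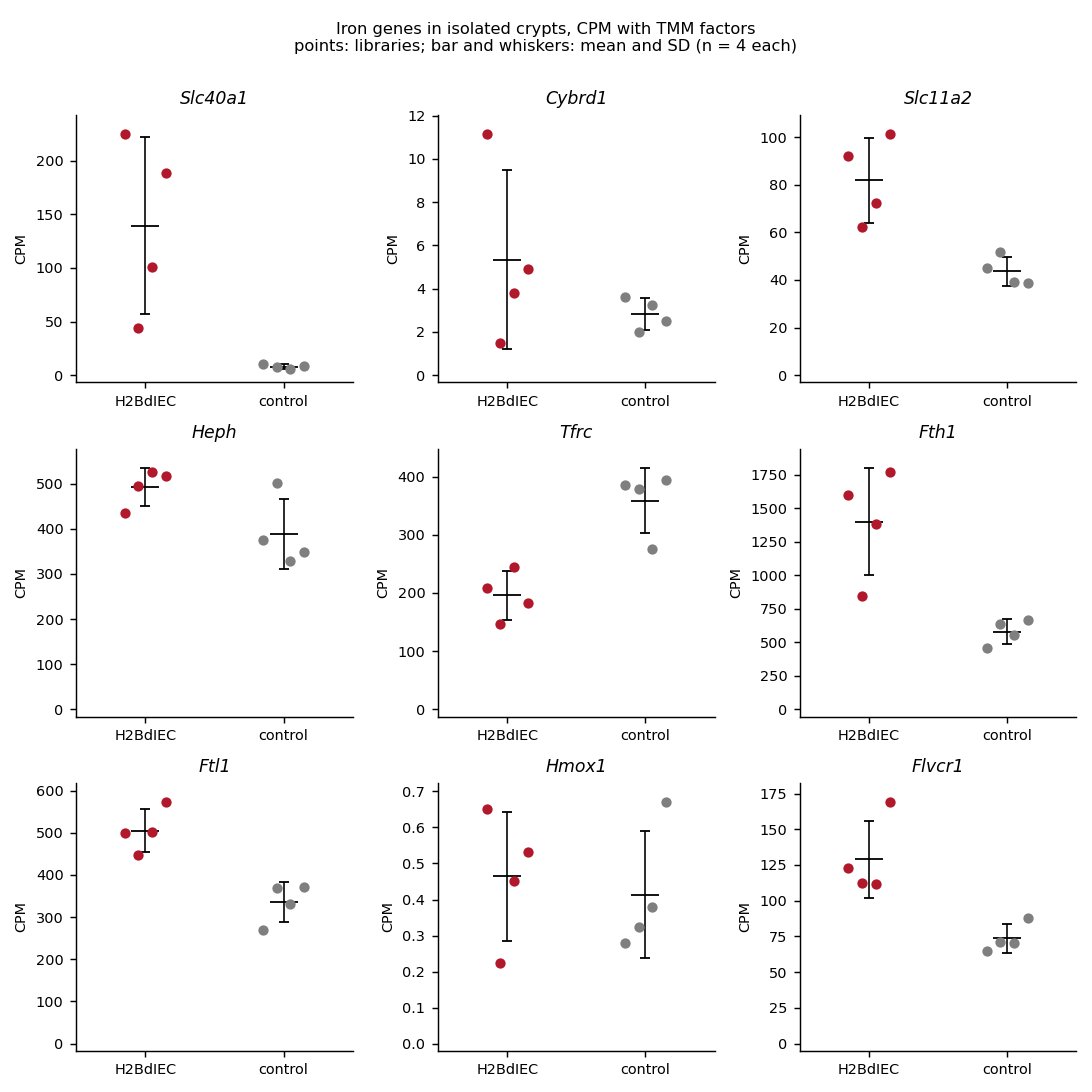
CPM of the 9 iron genes in crypts, H2BdIEC left and control right; points are libraries, bars and whiskers the mean and SD (n = 4 each). Slc40a1 lies between 43.5 and 225.0 CPM in H2BdIEC crypts, above all controls (5.61 to 10.4 CPM), and Tfrc lies below all controls.

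Markers of gut region and of cell type moved with these genes. Of 8 markers of the proximal small intestine, 4 were called higher in H2BdIEC crypts (Pdx1, S100g, Fabp1 and Adh6a) and none lower, and their sum was 4451 to 6224 CPM in H2BdIEC crypts against 2155 to 4164 CPM in control crypts. Pdx1, a transcription factor of the duodenum and pancreas, had 23.5, 6.82, 19.0 and 21.05 CPM in H2BdIEC crypts Crypt_975, Crypt_976, Crypt_978 and Crypt_979, against 0.351, 1.98, 0.190 and 1.93 CPM in control crypts Crypt_970, Crypt_971, Crypt_972 and Crypt_981. S100g, a calcium-binding protein of the duodenum, had 192.8, 22.02, 141.7 and 177.1 CPM in H2BdIEC crypts, against 0.982, 1.26, 1.78 and 4.23 CPM in control crypts. Among the 4 H2BdIEC libraries, Pdx1, S100g and Slc40a1 had the same order, Crypt_975 highest and Crypt_976 lowest. The other 2 proximal markers called higher were ordered otherwise: Fabp1 had 1736, 2180, 2666 and 2853 CPM in Crypt_975, Crypt_976, Crypt_978 and Crypt_979, and Adh6a was highest in Crypt_979 with 591.5 CPM. Of 6 ileum markers 1 was called lower, and the list summed to 255.7 to 690.8 CPM in H2BdIEC crypts against 388.2 to 1516 CPM in control crypts. Of 6 stem cell markers 4 were lower, with sums of 438.1 to 734.5 CPM in H2BdIEC crypts against 1105 to 1268 CPM in control crypts, and of 8 Paneth and goblet cell markers 4 were lower, with sums of 8115 to 13350 CPM in H2BdIEC crypts against 17560 to 24110 CPM in control crypts. Of 14 enterocyte markers 1 was higher, with sums of 48160 to 61700 CPM in H2BdIEC crypts against 35610 to 52150 CPM in control crypts. Of 12 macrophage markers 9 could be tested and 1 was called higher. Their sum was 79.8 to 115.6 CPM in H2BdIEC crypts against 46.0 to 78.1 CPM in control crypts, with Vsig4 at 0 in both. Markers of pancreas and liver summed to 396.6 CPM in H2BdIEC library Crypt_976, against 22.7 to 26.1 CPM in the other H2BdIEC crypts and 7.56 to 11.5 CPM in control crypts. Mitochondrial genes held 9.30% to 15.7% of counts in H2BdIEC crypts, against 10.4% in control Crypt_981 and 4.33% to 5.09% in the other controls. Crypt_981 also stood apart from the other controls in its counts, where chi-square over its degrees of freedom was 160.6 to 209.7 against them and 21.3 to 64.7 among them. Without Crypt_981 the same 6 iron genes were called, Slc40a1 with a log2 fold change of 4.18 (adjusted p = 0.0257). The part of gut region, cell makeup and the mitochondrial share in the iron gene differences was not tested, and fewer cells of a type and less RNA per cell cannot be told apart in bulk libraries.

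Of 50 further genes of iron and haem handling, 41 could be tested in crypts, of which 5 were called higher and 3 lower, where 10.0% of all genes were called. Their median log2 fold change was 0.07. Those higher were the haem and folate carrier Slc46a1 with a log2 fold change of 1.62 (adjusted p = 0.0387), the ferritin degradation receptor Ncoa4 with 1.15 (adjusted p = 0.0194), Epas1, the hypoxia-inducible factor 2 alpha that drives iron absorption genes, with 0.89 (adjusted p = 0.0305), the zinc and iron transporter Slc39a14 with 0.60 (adjusted p = 0.029), and the haem synthesis enzyme Ppox with 0.51 (adjusted p = 0.0246). Those lower were the transporter Slc39a8 with -0.88 (adjusted p = 0.00689) and the metalloreductases Steap3 with -0.88 (adjusted p = 0.00934) and Steap2 with -0.58 (adjusted p = 0.0113). The iron sensors themselves were not called: the log2 fold change was 0.11 for Aco1 and 0.28 for Ireb2, which encode the iron regulatory proteins, and 0.36 for Fbxl5, which marks Ireb2 protein for degradation.

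In tumors, set against adjacent tissue of the same mice, the brush border reductase and haem oxygenase were higher, the ferroxidase and the haem exporter were lower. The main fit compared group means and did not pair libraries by mouse. Of 17666 genes tested, 46.9% were called in this comparison, and of the 9 iron genes 6 were, 4 higher and 2 lower. Cybrd1 had 59.2, 55.6, 10.3 and 51.5 CPM in tumors of mice 1319, 1322, 1323 and 1349, against 5.20, 3.84, 2.36 and 2.25 CPM in their adjacent tissue. It was higher in 4 of 4 mice, by 4.37-fold in mouse 1323 and 11.4-fold to 22.9-fold in the others, with a log2 fold change of 3.69 ± 0.51 (adjusted p = 0.000159). Heph had 82.4, 5.50, 41.0 and 94.3 CPM in the tumors against 364.2, 338.6, 477.0 and 356.0 CPM in adjacent tissue, in the same order of mice. It was lower in all 4, most in mouse 1322, and its log2 fold change was -2.78 ± 0.59 (adjusted p = 0.00249).

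Hmox1 had 33.7, 57.9, 200.7 and 47.5 CPM in tumors 1319, 1322, 1323 and 1349, against 18.4, 12.4, 5.25 and 8.54 CPM in adjacent tissue, a log2 fold change of 2.92 ± 0.56 (adjusted p = 0.00136). The groups did not overlap, the tumor of mouse 1323 stood far above the others, and without it the log2 fold change was 2.06 (adjusted p = 0.00127). Fth1 was 1920, 3209, 4222 and 2128 CPM in the tumors against 1519, 1776, 1613 and 1336 CPM in adjacent tissue, higher in 4 of 4 mice, with a log2 fold change of 0.88 ± 0.26 (adjusted p = 0.0136). Ftl1 was 337.3 to 765.6 CPM in tumors and 328.7 to 380.2 CPM in adjacent tissue, higher in 3 of 4 mice, with a log2 fold change of 0.57 ± 0.21 (adjusted p = 0.0431). With mouse as a block in the fit, neither ferritin chain was called, with adjusted p of 0.0867 for Fth1 and 0.194 for Ftl1, while Cybrd1, Heph, Hmox1 and Flvcr1 were. The block fit held only tumor and adjacent libraries. With those libraries alone and no block, both chains were lost as well, and the part of the pairing in that loss was not tested. Ftl1 was also lost when either library of mouse 1323 or 1322, or adjacent library 1349 or 1319, was left out.

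Flvcr1 had 43.0, 10.8, 20.6 and 30.7 CPM in tumors 1319, 1322, 1323 and 1349, against 94.4, 47.6, 102.6 and 32.7 CPM in adjacent tissue. It was lower in 4 of 4 mice but hardly in mouse 1349, where the ratio was 0.94, and its log2 fold change was -1.40 ± 0.41 (adjusted p = 0.0155). Without tissue control 1320 and adjacent 1323 together, its adjusted p was 0.0595. Slc40a1 differed between mice: tumor over adjacent was 1.07 in mouse 1319, 0.23 in 1322, 4.42 in 1323 and 0.60 in 1349. The adjacent library of mouse 1323 had 6.71 CPM, the lowest of all 12 tissue libraries. That library also had the highest proximal marker sum of the 12, 4532 CPM. In isolated crypts, a separate set, both Slc40a1 and that sum were higher in H2BdIEC than in control libraries. The part of gut region in these Slc40a1 levels was not tested. Tumor against adjacent tissue, the log2 fold change of Slc40a1 was -0.64 (adjusted p = 0.339), and -1.01 with an adjusted p of 0.0168 without adjacent 1323. Slc11a2 was lower in 3 of 4 tumors (log2 fold change -0.38, adjusted p = 0.22) and was called, with -0.71 and an adjusted p of 0.00786, without tumor 1319. Tfrc was higher in 2 mice and lower in 2 (log2 fold change -0.52, adjusted p = 0.129), and was called, with -0.71 and an adjusted p of 0.0318, without adjacent 1319.

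**Figure D3:**
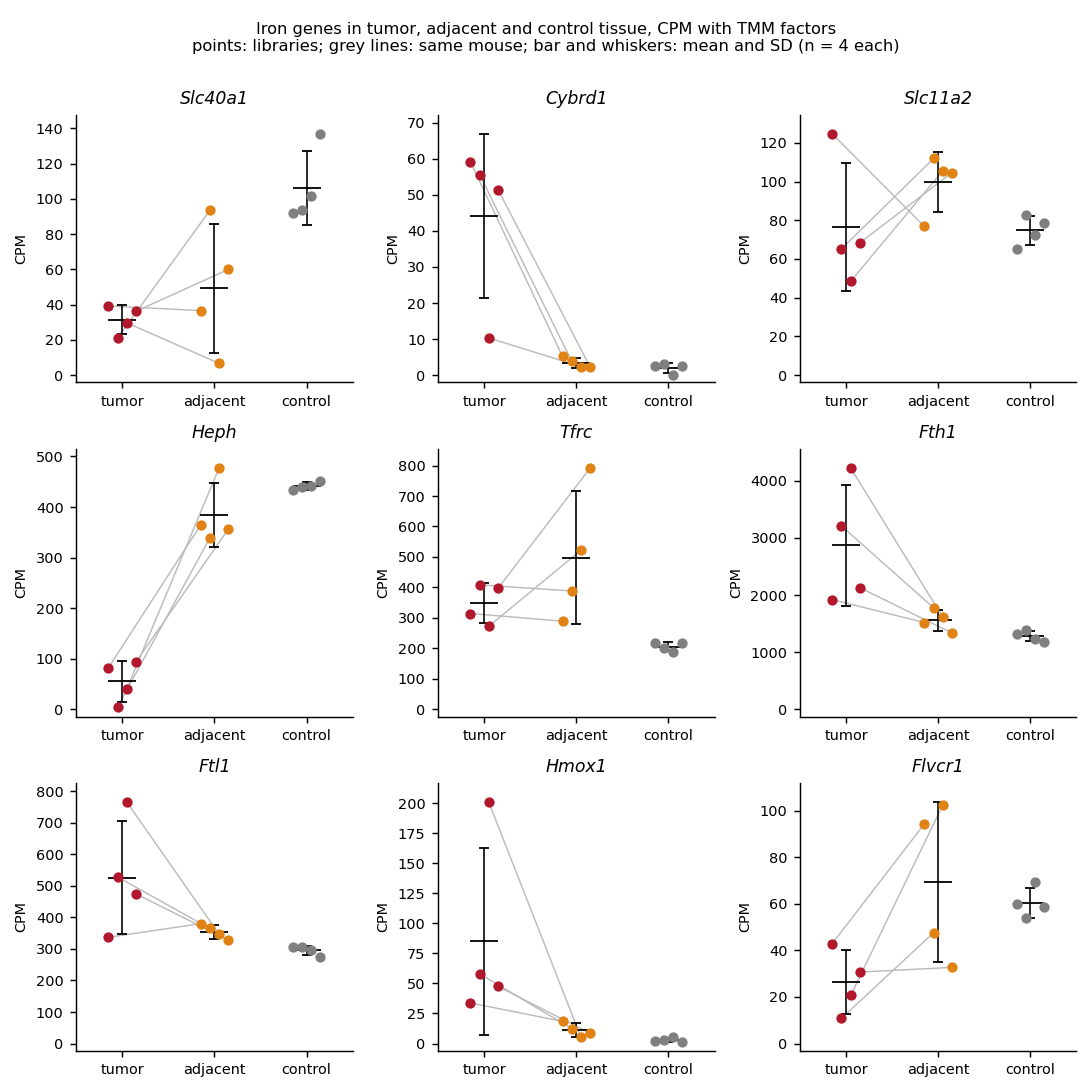
CPM of the 9 iron genes in tumors, adjacent tissue and control tissue; points are libraries, grey lines join tumor and adjacent tissue of 1 mouse, bars and whiskers give the mean and SD (n = 4 each). Cybrd1 and Hmox1 are higher and Heph lower in the tumor of each mouse, and Slc40a1 lines cross.

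Against tissue of control mice, tumors differed in 8 of the 9 genes, in a comparison in which 54.6% of all genes were called. The tumor libraries are those of the comparison with adjacent tissue. Slc40a1 was 39.2, 21.1, 29.7 and 36.3 CPM in tumors 1319, 1322, 1323 and 1349, against 92.2, 93.9, 101.7 and 136.9 CPM in controls 1315, 1316, 1320 and 1321, with no overlap and a log2 fold change of -1.75 ± 0.55 (adjusted p = 0.0169). The value of control 1320 rests on 38 counts, and with no filter on low counts the adjusted p of Slc40a1 was 0.0724. Tfrc was 272.6 to 408.5 CPM in tumors and 187.3 to 218.5 CPM in controls, a log2 fold change of 0.75 ± 0.27 (adjusted p = 0.0304). Its call was lost, with adjusted p up to 0.0734, when tumor 1349 or 1322 or any 1 of the 4 controls was left out.

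The other calls against control tissue had the direction of those against adjacent tissue. Hmox1 was 1.59 to 5.35 CPM in controls, where the highest value, in control 1320, rests on 2 counts, and its log2 fold change in tumors was 5.26 ± 0.69 (adjusted p = 7.54e-05), and 4.38 (adjusted p = 2.55e-05) without tumor 1323. Cybrd1 was 2.40 to 3.13 CPM in 3 controls and had 0 counts in control 1320, a depth at which 3 counts would be 8.03 CPM. Its log2 fold change was 4.10 ± 0.56 (adjusted p = 8.76e-05), and that of Heph, which had 433.5 to 451.1 CPM in controls, was -2.98 ± 0.60 (adjusted p = 0.00125). Fth1 had a log2 fold change of 1.16 ± 0.26 (adjusted p = 0.00219) and Ftl1 of 0.83 ± 0.21 (adjusted p = 0.00559). Flvcr1 fell by 1.18 on the log2 scale in tumors (adjusted p = 0.0316), a call lost when tumor 1322 or 1323 or control 1315, 1320 or 1321 was left out, with adjusted p up to 0.0758. Slc11a2 differed by 0.03 on the log2 scale, with 48.4 to 124.6 CPM in tumors around the 65.2 to 82.8 CPM of controls.

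Few genes were called between adjacent and control tissue, 1.07% of those tested, and 1 of the 9 iron genes was. In simulated counts for this comparison, 23% of changes of 1 on the log2 scale were recovered. Genes without a call may therefore differ. Tfrc had 289.4, 388.4, 522.0 and 791.7 CPM in adjacent tissue of mice 1319, 1322, 1323 and 1349, against 217.4, 200.6, 187.3 and 218.5 CPM in controls 1315, 1316, 1320 and 1321. The groups did not overlap, and the log2 fold change was 1.27 ± 0.27 (adjusted p = 0.0478). That call was lost when any 1 control, or adjacent library 1349 or 1323, was left out, with adjusted p up to 0.173. Hmox1, at 5.25 to 18.4 CPM in adjacent tissue, had a log2 fold change of 2.33 ± 0.63 (adjusted p = 0.0868). It was called in 3 alternative analyses: by DESeq2, with only these 2 groups in the fit, and in 1 fit over all 29 libraries. Slc40a1 had 6.71 to 93.5 CPM in adjacent tissue, a log2 fold change of -1.11 (adjusted p = 0.314). The log2 fold changes of the other 6 genes lay between -0.20 for Heph and 0.41 for Cybrd1, with adjusted p of 0.42 or more.

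Blood, immune and epithelial markers differed widely between these tissues. Of 11 macrophage markers tested, 5 were called higher and 1 lower in tumors than in adjacent tissue, and the list summed to 713.5 to 1964 CPM in tumors, 262.9 to 964.7 CPM in adjacent tissue and 275.6 to 486.8 CPM in controls, with Vsig4 at 0 in controls. The highest sum was in tumor 1323, the library with the highest Hmox1. That tumor was also the highest tumor for neutrophil, red cell, smooth muscle and fibroblast, and endothelial markers. Its sums were 1452, 346.8, 10910 and 332.8 CPM in that order. The other tumors had at most 424.2, 265.2, 3479 and 249.0 CPM. Neutrophil markers summed to 165.7 to 1452 CPM in tumors, 37.1 to 168.5 CPM in adjacent tissue and 0 to 4.51 CPM in controls, and red cell markers to 196.2 to 346.8 CPM in tumors, 92.3 to 688.5 CPM in adjacent tissue and 7.26 to 12.7 CPM in controls. Of 14 enterocyte markers 10 were lower in tumors than in adjacent tissue, with sums of 1222 to 22530 CPM in tumors, 40020 to 141200 CPM in adjacent tissue and 37570 to 47980 CPM in controls. The lowest sum was in tumor 1322, the library with the lowest Heph and Flvcr1. All 6 ileum markers were lower in tumors, with sums of 41.6 to 165.7 CPM in tumors, 614.5 to 13670 CPM in adjacent tissue and 10780 to 17260 CPM in controls. Of 8 proximal markers 1 was higher and 2 lower in tumors than in adjacent tissue, and 4 were higher and 1 lower than in controls, with sums of 321.1 to 2108 CPM in tumors, 938.8 to 4532 CPM in adjacent tissue and 875.2 to 1268 CPM in controls. Of 4 pancreas and liver markers tested, 2 were higher in tumors than in adjacent tissue and 4 higher than in controls, and the list summed to 62.0 to 383.1 CPM in tumors, 14.9 to 46.7 CPM in adjacent tissue and 2.68 to 12.7 CPM in controls. The part of cell makeup and gut region in the iron gene differences was not tested.

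Among the further iron and haem genes, 14 of 47 were higher and 8 lower in tumors than in adjacent tissue, a share near the 46.9% of all genes. The 4 with the smallest p were Tmprss6, the protease that lowers hepcidin in liver, with a log2 fold change of 5.96 (adjusted p = 2.95e-05), the mitochondrial iron importer Slc25a37 with -2.10 (adjusted p = 4.55e-05), the iron-binding protein Ltf of neutrophils and glands with 6.11 (adjusted p = 0.000136) and the metalloreductase Steap1 with 3.11 (adjusted p = 0.00015). Tmprss6 was low throughout, at 3.41 to 11.5 CPM in tumors and 0.0449 to 0.210 CPM in adjacent tissue. Aco1 was lower in tumors than in adjacent tissue, with a log2 fold change of -1.35 (adjusted p = 0.000785), as was Ncoa4 with -0.998 (adjusted p = 0.00365). Against controls, 21 of 47 were higher in tumors and 8 lower, where 54.6% of all genes were called, and those with the smallest p were Tmprss6, Slc25a37, Ltf and the iron carrier Trf, with log2 fold changes of 6.23, -2.03, 8.47 and 4.82. In adjacent tissue against controls 2 of 47 were called, where 1.07% of all genes were. They were the red cell haem synthesis enzyme Alas2 with 5.41 (adjusted p = 0.0146) and Flvcr2 with 3.19 (adjusted p = 0.029), both higher.

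In organoids, H2BdIEC alone moved the iron genes little. Rnaseh2b mRNA remained at 4.97 to 7.04 CPM in H2BdIEC organoids, against 14.8 to 18.3 CPM in control organoids. Its log2 fold change was -1.47 (adjusted p = 0.000502), where it was -2.08 in crypts. Of 15701 genes tested, 4.06% were called between H2BdIEC and control organoids, and 2 of the 9 iron genes were, neither of them by more than 0.39 on the log2 scale. Cybrd1 had 518.8, 585.8 and 546.9 CPM in H2BdIEC organoids A, B and C, against 677.9, 783.7 and 709.4 CPM in control organoids A, B and C. The groups did not overlap, and the log2 fold change was -0.39 ± 0.08 (adjusted p = 0.0193). Flvcr1 had 64.4, 56.7 and 57.7 CPM in H2BdIEC organoids, against 46.9, 45.6 and 51.9 CPM in control organoids, a log2 fold change of 0.30 ± 0.08 (adjusted p = 0.0467). Both calls were lost with only these 2 groups in the fit and in 1 fit over all libraries. Cybrd1 was also lost without control B or C, with adjusted p up to 0.1, and Flvcr1 without H2BdIEC B or C or control A or B, with adjusted p up to 0.191. Slc40a1 was 121.2 to 200.2 CPM in H2BdIEC and 101.4 to 152.1 CPM in control organoids, with a log2 fold change of 0.29 ± 0.18 (adjusted p = 0.414). Hmox1 was 16.2 to 17.9 CPM in H2BdIEC and 19.9 to 24.2 CPM in control organoids, ranges that did not overlap, with a log2 fold change of -0.38 ± 0.10 (adjusted p = 0.0609). The other 5 genes had log2 fold changes between -0.26 for Slc11a2 and 0.14 for Heph, with adjusted p of 0.273 or more. Ftl1 was 100.1 CPM in H2BdIEC library A, the shallow one, against 230.1 and 248.3 CPM in libraries C and B.

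In H2Bp53dIEC organoids, both genes of luminal iron uptake and haem oxygenase were lower than in H2BdIEC organoids. Rnaseh2b was also lower, with 1.081 to 2.15 CPM in H2Bp53dIEC against 4.97 to 7.04 CPM in H2BdIEC organoids (log2 fold change -1.82, adjusted p = 0.000147), so the groups differed in more than Trp53. Of all genes, 29.3% were called between H2Bp53dIEC and H2BdIEC organoids, and of the 9 iron genes 3 were, all lower. Slc11a2 had 497.5, 556.6 and 564.0 CPM in H2Bp53dIEC organoids 1, 2 and 3, against 984.4, 870.6 and 907.1 CPM in H2BdIEC organoids A, B and C, a log2 fold change of -0.77 ± 0.13 (adjusted p = 0.000882). Cybrd1 had 372.9, 440.3 and 414.1 CPM in H2Bp53dIEC organoids, below every H2BdIEC library, with a log2 fold change of -0.43 ± 0.08 (adjusted p = 0.00244). Hmox1 had 9.35, 8.99 and 9.08 CPM in H2Bp53dIEC organoids, against 16.2, 17.9 and 17.4 CPM in H2BdIEC organoids, a log2 fold change of -0.92 ± 0.11 (adjusted p = 0.000103). The 6 genes not called had log2 fold changes between -0.30 for Heph and 0.25 for Slc40a1 and Fth1. None of the 3 was called in 1 fit over all 29 libraries, and all 3 were called when any 1 library of the 2 groups was left out. Without H2BdIEC library A, the shallowest organoid library, Ftl1 was called lower (log2 fold change -0.43, adjusted p = 4.1e-05) and Tfrc higher (0.17, adjusted p = 0.0355), where Tfrc had -0.04 with that library.

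Against control organoids, which share the H2Bp53dIEC libraries with the comparison above, 33.3% of all genes and 5 of the 9 iron genes were called, 2 higher and 3 lower. Hmox1 was 23.0, 24.2 and 19.9 CPM in control organoids A, B and C, and its log2 fold change in H2Bp53dIEC was -1.29 ± 0.10 (adjusted p = 3.17e-06). Slc11a2, at 872.0 to 1351 CPM in controls, had -1.03 ± 0.13 (adjusted p = 8.6e-05), and Cybrd1 -0.82 ± 0.08 (adjusted p = 1.85e-05). Slc40a1 had 158.6, 198.4 and 189.2 CPM in H2Bp53dIEC organoids, against 101.4, 152.1 and 122.5 CPM in control organoids, higher in every library, with a log2 fold change of 0.54 ± 0.18 (adjusted p = 0.0434). Flvcr1 was 57.9 to 58.3 CPM in H2Bp53dIEC and 45.6 to 51.9 CPM in control organoids, a log2 fold change of 0.27 ± 0.08 (adjusted p = 0.0147). Slc40a1 lost its call without H2Bp53dIEC 2 or 3 or control A or C, with adjusted p up to 0.123, and Flvcr1 without H2Bp53dIEC 1 or 2 or control B, with adjusted p up to 0.0731. Tfrc and Fth1 differed by 0.01 and 0.15 on the log2 scale, Heph by -0.15 and Ftl1 by -0.38, without a call.

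**Figure D4:**
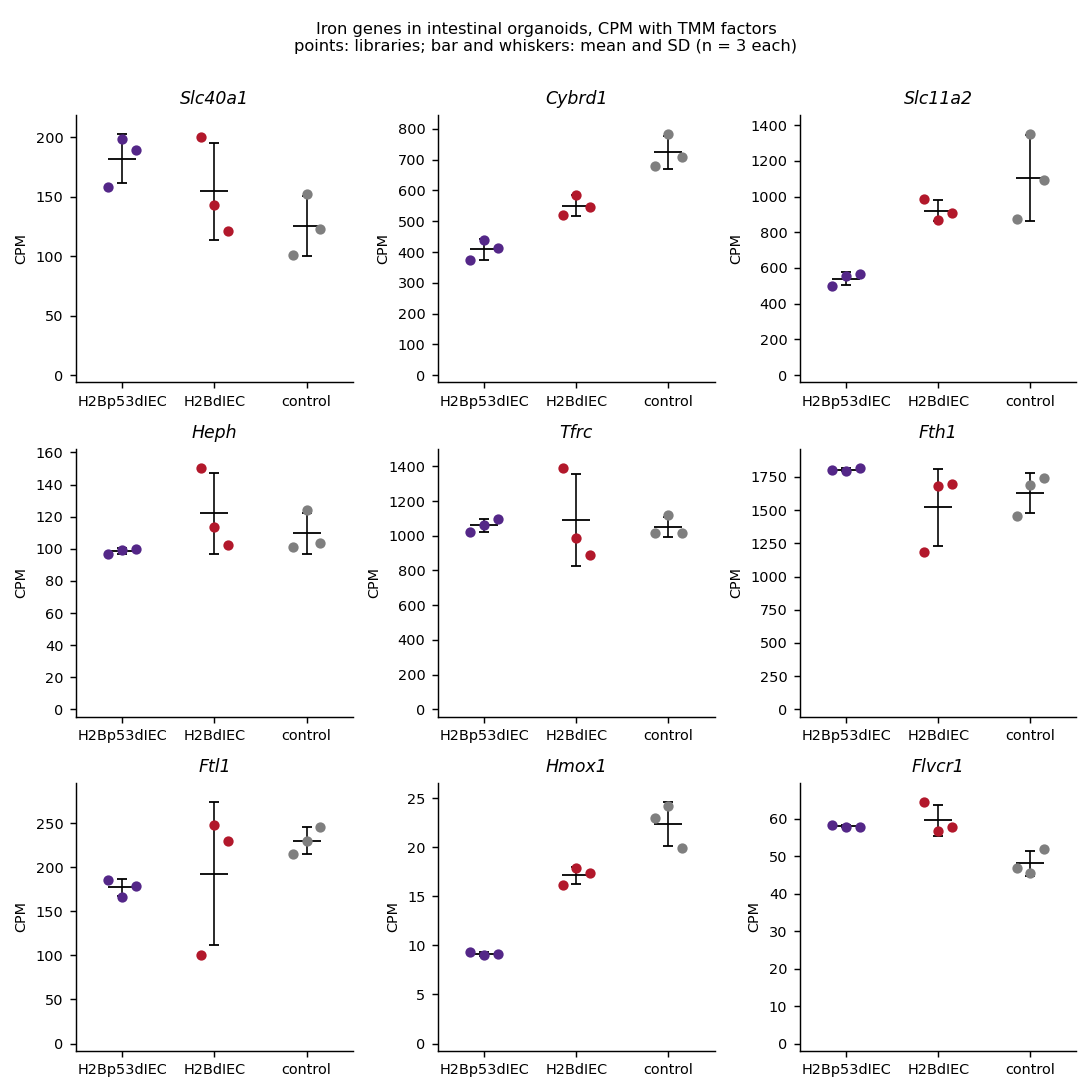
CPM of the 9 iron genes in H2Bp53dIEC, H2BdIEC and control organoids; points are libraries, bars and whiskers the mean and SD (n = 3 each). Hmox1, Cybrd1 and Slc11a2 are lowest in H2Bp53dIEC, and the H2BdIEC library with 100.1 CPM of Ftl1 is A.

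Organoids held little RNA of other tissue: 12 macrophage markers summed to 11.01 to 13.0 CPM in H2Bp53dIEC, 7.81 to 10.02 CPM in H2BdIEC and 8.64 to 9.64 CPM in controls, with Adgre1, Cd163, C1qb, C1qc and Vsig4 at 0 in every library. Stem cell markers, of which 4 of 6 were higher in H2Bp53dIEC than in H2BdIEC, summed to 3532 to 3634 CPM in H2Bp53dIEC, 2712 to 2930 CPM in H2BdIEC and 2426 to 2766 CPM in controls. Enterocyte markers summed to 5545 to 5854 CPM, 6041 to 9558 CPM and 5323 to 7088 CPM in the same order, and 5 of 14 were lower and 1 higher in H2Bp53dIEC than in H2BdIEC. The part of differentiation in the organoid differences was not tested. Of 43 further iron genes, 6 were higher and 7 lower in H2Bp53dIEC than in H2BdIEC, a share near the 29.3% of all genes. Those with the smallest p were the haem synthesis enzyme Cpox with -0.47 (adjusted p = 0.000239), the hormone gene Erfe with 0.62 (adjusted p = 0.000473), the mitochondrial carrier Slc25a28 with 0.69 (adjusted p = 0.00139) and Slc39a8 with -0.34 (adjusted p = 0.00152). Against controls 7 were higher and 7 lower, a share near the 33.3% of all genes, and those with the smallest p were Hfe with 1.001, Cpox with -0.45, the hepcidin gene Hamp2 with -1.54 at under 3 CPM, and Slc39a14 with -0.44. Ncoa4, higher in H2BdIEC crypts, was lower in H2Bp53dIEC organoids than in H2BdIEC (log2 fold change -0.74, adjusted p = 0.00788) and control organoids (-0.73, adjusted p = 0.00517). Between H2BdIEC and control organoids 2 of 43 were called, a share near the 4.06% of all genes. They were Tfr2 with -1.06 (adjusted p = 0.0122) and Ltf with 2.61 (adjusted p = 0.0126), both under 7 CPM.

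Crypts and organoids gave different responses to loss of Rnaseh2b for 3 of the 9 genes, by a test of the difference itself. The contrast took the H2BdIEC effect in crypts minus that in organoids in 1 fit over 14 libraries, in which 4.02% of 17163 genes were called. For Slc40a1 the difference was 3.85 ± 0.66 on the log2 scale (adjusted p = 0.0116), for Fth1 1.39 ± 0.30 (adjusted p = 0.0183) and for Slc11a2 1.19 ± 0.24 (adjusted p = 0.0132). Without organoid control B, Fth1 and Slc11a2 were no longer called, and Fth1 was also lost without H2BdIEC organoid A or control organoid C, with adjusted p up to 0.0568. Tfrc, with -0.90 ± 0.25, had an adjusted p of 0.0525 and was called under 6 of 20 alternatives. Of 8 proximal gut markers 2 were called in the same contrast, Pdx1 with 3.75 (adjusted p = 0.0224) and S100g with 5.02 (adjusted p = 0.0182). All 8 had positive values, with a median of 0.92 against 0.02 over all genes tested. Rnaseh2b itself had -0.58 in it, without a call (adjusted p = 0.401). Material, age, culture, the extent of the Rnaseh2b decrease and the control genotype (H2B flox/flox for crypts, H2B/p53flox/flox for organoids) cannot be told apart in it.

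**Figure D5:**
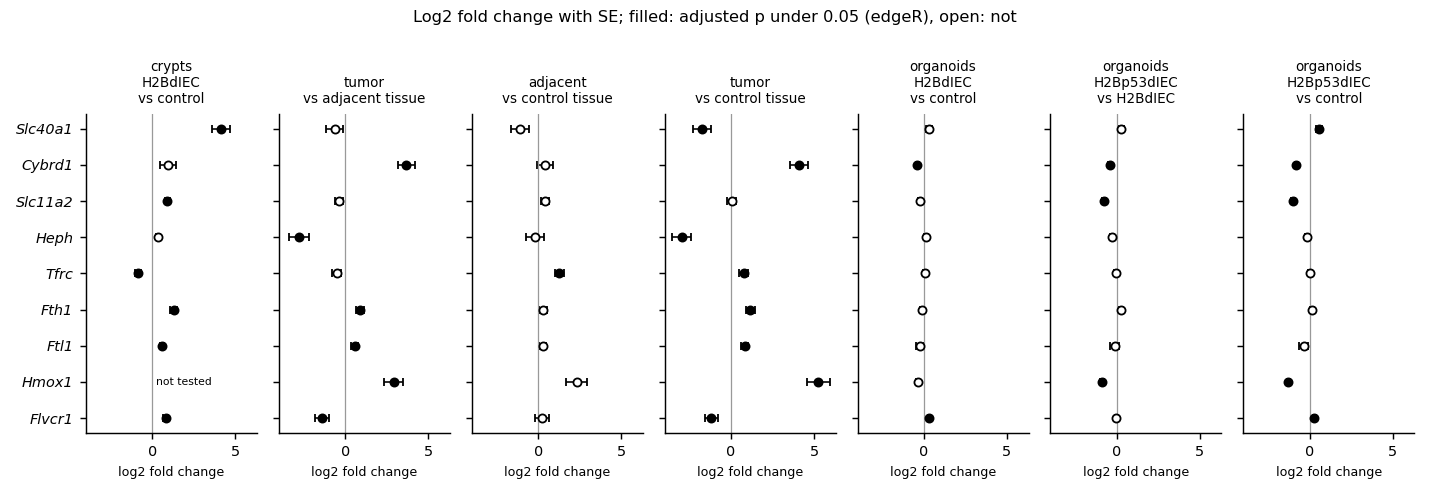
Log2 fold change (horizontal axis) with its SE for the 9 iron genes in 7 comparisons, filled where the adjusted p was under 0.05 and open where not. Slc40a1 stands at 4.13 in crypts and at -1.75 in tumors against controls, and the organoid values lie between -1.29 and 0.54.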

How the data were processed

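Libraries of crypts, tissue and organoids were made from 500 ng of total RNA with a TruSeq stranded mRNA kit, per the labels' protocols. The deposited values are raw counts of reads per Ensembl gene, not normalized, in 1 file per library. The submitters' processing notes name GRCm38 and cutadapt (1.5, 1.9), TopHat2 2.0.14, Trimmomatic 0.36 and HTSeq; their roles, the strand setting and the annotation release are not given in the sources used here. Summary lines that name no gene, present in the crypt files, were left out.

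Symbols, coordinates and exon lengths came from GENCODE M21, with at most 0.18% of a library's counts unmatched. Crypts, tissue and organoids were each fitted separately in edgeR 4.0.16 (R 4.3.3) with the filterByExpr filter, TMM factors and the robust quasi-likelihood test. Benjamini-Hochberg adjustment ran over all genes tested, and calls were made at an adjusted p under 0.05. CPM use the TMM factors; values after ± are SD for levels and SE for log2 fold changes, the SE being the fold change over the square root of F. All 9 genes are given in every comparison; of the further iron genes, the 4 with the smallest p among those called are named. Slc46a1, Slc39a14 and Ppox in crypts were named after their values were seen. Aco1, Ireb2, Fbxl5, Epas1 and Ncoa4 are named in addition. The 9 genes, the gene lists and the markers were chosen with earlier results of these data known. Of the further iron genes Hjv was not matched.

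TPM had been planned over all genes. RNAs outside nuclear protein-coding genes took 38.9% to 58.4% of the per-length rate in H2BdIEC crypts and 27.9% to 33.1% in control crypts, so TPM was taken over 21607 nuclear protein-coding genes, a choice made after the data were seen. Over all genes, the crypt ratio of H2BdIEC to control was 13.9 in place of 17.4 for Slc40a1, 1.11 in place of 1.49 for Ftl1 and 0.913 in place of 1.24 for Heph.

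A tumor and its adjacent tissue come from the same animal and are paired by it. Their deviations from the group means correlated over genes at 0.03, 0.16, -0.19 and 0.19. The main fit left this pairing out, and mouse was a block in an alternative only. The fitting was tested on simulated data in which a small share of genes changed. Changes of 1 on the log2 scale were recovered in 79% of cases in crypts. That share was 23% to 24% in the tissue comparisons and 84% to 90% in organoids. Many more genes were called in the tumor and H2Bp53dIEC organoid comparisons than were changed in the simulation, so recovery there may differ. Alternatives were size factors and the test of DESeq2 1.42.0, upper-quartile factors, other low-count filters or none, a fit without robust estimation, fits of the compared groups alone or of all 29 libraries, replicate blocks, and removal of each library. Removal of control 1320 together with adjacent 1323 was added after the data were seen. Among replicates 0 pairs of libraries were identical.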

Additional observations from a re-analysis of the deposited data

Results flagged for a closer look

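Of 45 groups of 4 libraries checked (9 genes in 5 groups), 3 held a library far from the other 3, where chance alone gives about 1 in 20. Cybrd1 was 10.3 CPM in the tumor of mouse 1323, against 51.5 to 59.2 CPM in the other tumors. Hmox1 was 200.7 CPM in the same tumor, against 33.7 to 57.9 CPM in the others. Tfrc was 275.2 CPM in control library Crypt_972, against 378.4 to 394.7 CPM in the other control crypts.

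The effect of H2BdIEC differed between crypts and organoids, by an interaction term in edgeR, for Slc40a1 (difference 3.85 on the log2 scale, adjusted p = 0.0116), Slc11a2 (1.19, adjusted p = 0.0132) and Fth1 (1.39, adjusted p = 0.0183).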

How the results depend on the processing

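Over all comparisons 34 values of the 9 genes were called, and 13 of them stayed called under every alternative run; of 37 values not called, 21 stayed so. Called under every alternative were Slc40a1, Slc11a2 and Fth1 in crypts, Cybrd1, Heph and Hmox1 in both tumor comparisons, Fth1 and Ftl1 in tumors against controls, Slc11a2 in H2Bp53dIEC against control organoids, and Slc40a1 in the interaction. For adjacent against control tissue, the count of 1 iron gene was 2 by the DESeq2 test, with only the 2 groups compared and in 1 fit over all 29 libraries, 0 to 1 with a library left out (8 removals), and 0 without control 1320 and adjacent 1323 together. For H2BdIEC against control organoids, the count of 2 was 5 with no low-count filter, 0 with only the 2 groups compared, 0 in 1 fit over all libraries and 0 to 2 with a library left out. For H2Bp53dIEC against H2BdIEC organoids, the count of 3 was 6 with no low-count filter, 0 in 1 fit over all libraries, and 3 to 5 with a library left out, 5 being without H2BdIEC A, where Tfrc changed sign to 0.173 (its lowest value with a library left out was -0.164). For H2Bp53dIEC against control organoids, the count of 5 was 1 in 1 fit over all libraries and 3 to 4 with a library left out. In the interaction, the count of 3 was 1 to 4 with a library left out. The causes of these moves were not tested. With the replicate block of mouse, tumor against adjacent tissue had 4 iron genes called in place of 6, Fth1 and Ftl1 being lost (adjusted p of 0.0867 and 0.194). Both were also lost with only the 2 groups compared and no block. Whether the organoid letters shared by H2BdIEC and control pair libraries was not settled. Deviations correlated at 0.02, -0.29 and 0.22. Tumor and adjacent libraries of the same mouse gave 0.03, 0.16, -0.19 and 0.19, so such values cannot part paired from unpaired libraries. With the letter as a replicate block 0 iron genes were called, the count also found with only the 2 groups and no block. Control 1320, with 401365 counts, and organoid H2BdIEC A, with 5774771, limit depth most.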
